A study of Mus musculus with 4 samples.

Results

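The comparison described here is that of mesenchymal stroma cells (MSCs) sorted from Bcr-Abl+ tumors of Sipa1 KO mice with those sorted from tumors of wild type mice. It rests on 2 of the 4 arrays of the series, the arrays labelled as tumor MSCs, with 1 array per genotype. The other 2 arrays hold CD8 T cells sorted from the same kind of tumors and are used as a reference for where a transcript was also seen. Both hosts were C57BL/6Ncr mice whose age the labels give as 8 weeks, and they were wild type or Sipa1 KO. The tumor cells were the same for both hosts. They were hematopoietic progenitor cells of B6 bone marrow that carried human p210 Bcr-Abl and a GFP reporter from a retrovirus, with intact Sipa1, placed under the skin in Matrigel at 15000 cells per mouse. Tumors were taken on day 12 from 5 mice per genotype, and the labels do not say whether their RNA was pooled. The MSC gate was defined by what the cells lacked, GFP, CD45, Ter119 and CD31, and no positive stromal marker was used to sort the cells for the arrays. With 1 array per genotype no difference has a replicate check, no test was made, and the spread between mice is unknown.

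Sipa1 encodes a GTPase-activating protein that switches off Rap1, a small GTPase that acts on integrins and cell adhesion. MSCs of a tumor are fibroblast-like cells that lay down and remodel the extracellular matrix and release growth factors and chemokines. Bcr-Abl is the fusion kinase of chronic myelogenous leukemia, and in mouse models the progenitors that carry it can give rise to myeloid cells or to B-lymphoid precursors. A gate built on absent markers takes in every cell that lacks them.

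Levels are given as log2 of the spot signal relative to the 75th percentile of its own array, so that a gene at 0 is as bright as that percentile, and levels are compared between arrays and not between genes. The log2 ratio is the level on the Sipa1 KO array minus that on the wild-type array. Both probes of Sipa1 were lower on the Sipa1 KO array, one at 5.03 and 3.78 and the other at 3.05 and 1.46 on the wild-type and Sipa1 KO arrays. Both stayed well above background there, and the labels do not say where the probes lie relative to the deleted part of the gene. Of the 39 markers of fibroblast and MSC identity, 38 were well above background on both MSC arrays, the exception being Tcf21. The summed signal of these 39 genes was 0.410% of all named genes on the wild-type and 0.931% on the Sipa1 KO array. Transcripts of gate markers were measurable in both sorts. Ptprc, which encodes CD45, was at 2.68 on the wild-type and 1.18 on the Sipa1 KO array by its brighter probe, against 6.26 and 6.07 on the wild-type and Sipa1 KO CD8 T arrays. Pecam1, which encodes CD31, was at -1.47 and -2.96 on the wild-type and Sipa1 KO MSC arrays.

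The 2 MSC arrays differed widely. Of 15298 genes measured on both, 2958 were at least 2-fold higher on the Sipa1 KO array, which is 19.3% of them, and 1733 were at least 2-fold lower, which is 11.3%. At 4-fold the counts were 531 higher (3.47%) and 530 lower (3.46%). Higher genes thus made up 63.1% of those past 2-fold, a share that became 74.1% on the scale of the authors' own value table and 80.1% when ribosomal protein genes were set level. The median of all genes lay near 0, at 0.04, with 51.8% of genes above 0 and 48.2% below. Against this scale, centring the arrays on their medians moved all ratios by -0.14, the authors' value table by 0.21 and level ribosomal genes by 0.36, so that ratios smaller than these can turn sign and are given as values with no direction. In the CD8 T pair, the shares past 2-fold were 2.66% higher and 1.40% lower, of 14339 genes. Where a gene past 2-fold had several probes, all its probes pointed the same way for 1433 of 1444 genes.

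**Figure D1:**
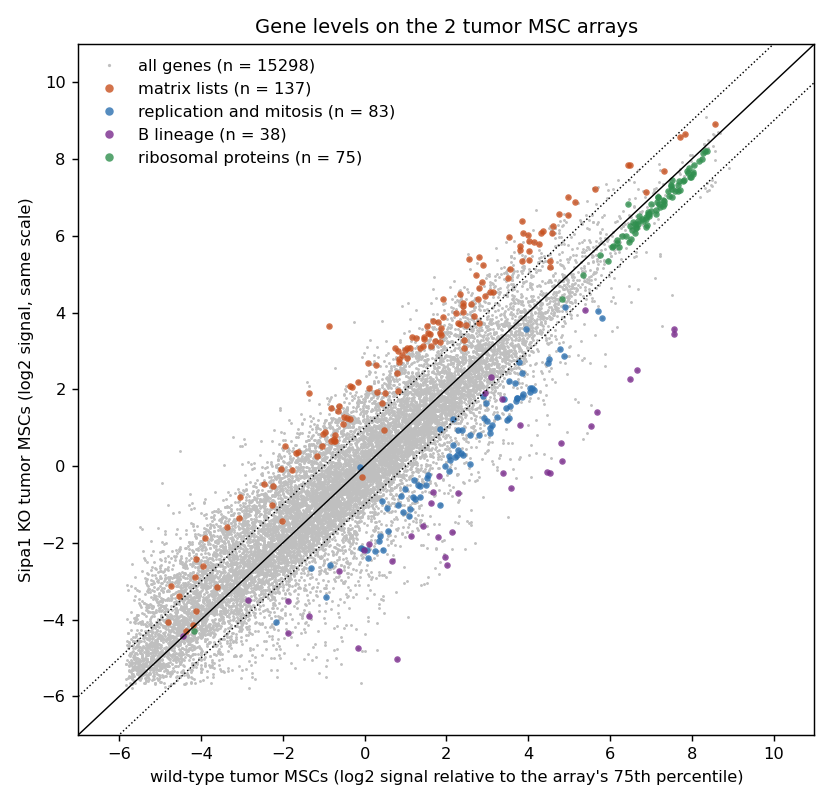
Level of each gene on the wild-type (x axis) and the Sipa1 KO (y axis) tumor MSC array, both as log2 signal relative to the array's 75th percentile, with equality as a line and 2-fold differences as dotted lines. The 38 B-lineage and 83 replication and mitosis genes lie below the line except Fcer2a and Pttg1, which lie on it. The 137 matrix genes lie above it with 1 exception. The 75 ribosomal protein genes form a tight band just under it except Rps24, which lies above it.

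Sorted by the median of their members, the gene lists formed a ladder. B-lineage genes were at its foot, with a median log2 ratio of -3.07, an 8.41-fold difference. Mitosis genes (-2.01), genes shared by leukocytes (-1.91) and DNA replication genes (-1.77) followed. A middle group held the respiratory chain at -0.40, ribosomal proteins at -0.36, erythroid genes at -0.25, neutrophil genes at 0.18, antigen presentation at 0.20, endothelial genes at 0.40 and interferon-stimulated genes at 0.49. At the upper end stood Hox genes (1.84), collagen processing enzymes (1.77), other matrix proteins (1.76), matrix proteases and their inhibitors (1.74), immediate early genes (1.61), collagens (1.58) and growth factors with their receptors (1.55). In the CD8 T pair the medians were -0.00 for the B lineage, -0.07 for mitosis and -0.14 for replication. They were 1.08 for the 4 matrix lists combined, -1.33 for neutrophil genes and -1.05 for erythroid genes. Of 37 B-lineage genes measured in that pair, 3 were at least 2-fold lower, against 1.40% of all its genes.

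**Figure D2:**
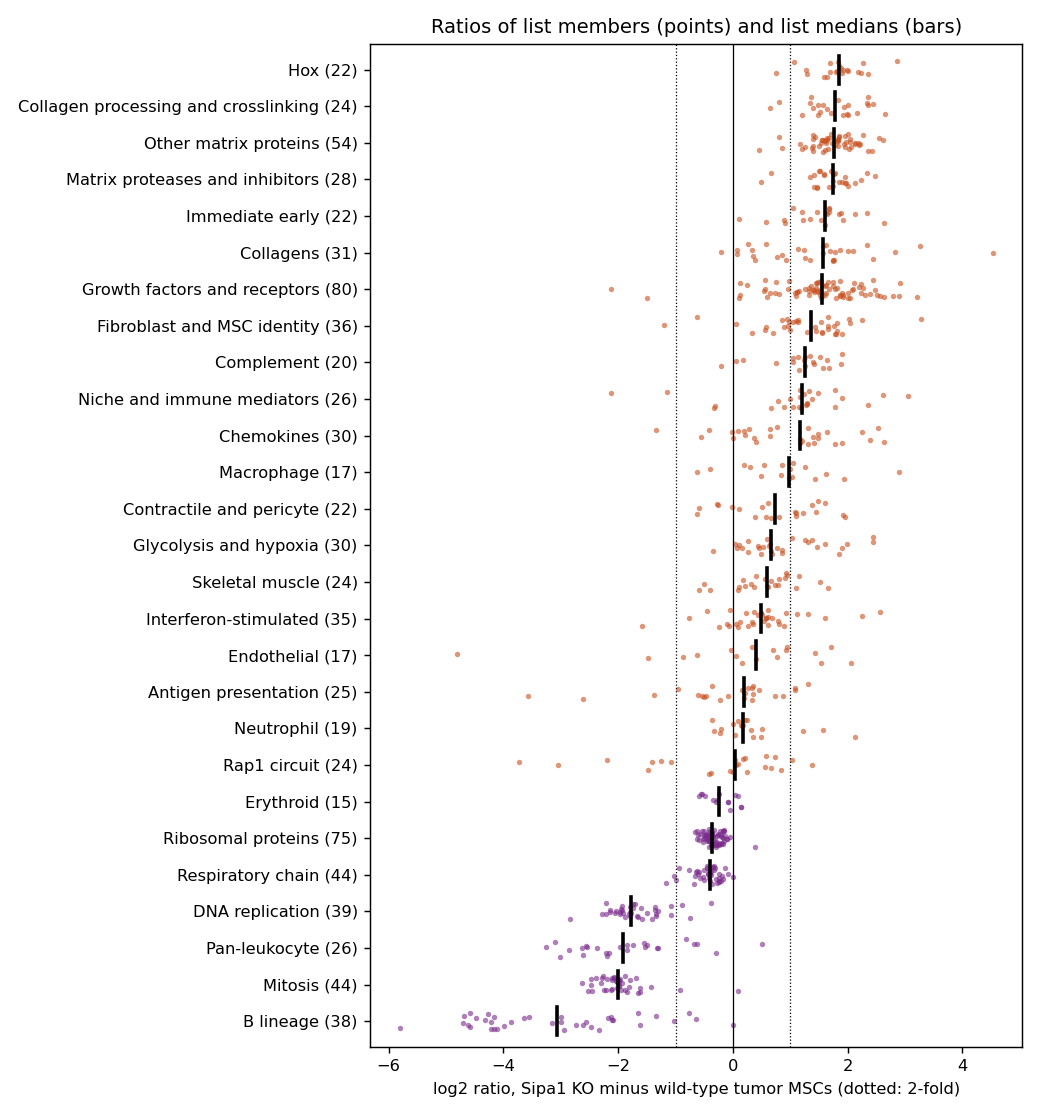
Log2 ratio (Sipa1 KO minus wild-type tumor MSCs, x axis) of each measured member of 27 gene lists (points), with the list median as a black bar, the number of measured members in parentheses and 2-fold differences as dotted lines. The medians run from -3.07 for the B lineage to 1.84 for Hox genes.

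Transcripts that make the pre-B cell receptor were much lower on the Sipa1 KO array. This receptor is built by B-cell precursors before they have a light chain, from a heavy chain and the surrogate light chain proteins VpreB and lambda 5, with CD79a and CD79b as the signal-bearing partners. Of 38 measured B-lineage genes, 35 were at least 2-fold lower on the Sipa1 KO array, against the 11.3% of all genes. At least 4-fold lower were 31, against 3.46%, and none was at least 2-fold higher, against 19.3%. Vpreb1 was at 7.57 on the wild-type and 3.45 on the Sipa1 KO array, a 17.4-fold difference, and was at 1.96 and -0.08 on the wild-type and Sipa1 KO CD8 T arrays. Igll1, which encodes lambda 5, was at 4.82 and 0.13 on the wild-type and Sipa1 KO MSC arrays. Cd79b was at 6.65 and 2.49. All 9 measured genes of the receptor and of its kinases and adaptor were at least 4-fold lower, against 3.46% of all genes, and their median ratio was -4.16. Btk and Syk, kinases that also serve other blood cells, were the least different of them, at -2.99 each. The adaptor Blnk was at 6.50 and 2.28, an 18.6-fold difference. Of the 9 genes, 3 were at least 2-fold lower in the CD8 T pair too, against 1.40% of all its genes. Among them, Igll1 was at -1.35 and -3.56 on the wild-type and Sipa1 KO CD8 T arrays.

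The enzymes that assemble immunoglobulin genes were lower too. Rag2, one of the pair of proteins that cut the gene segments, was at 0.79 on the wild-type and -5.02 on the Sipa1 KO array, the largest ratio of the list at -5.80. Rag1, its partner, was measured on the wild-type array at -1.25 and was not well above background on the Sipa1 KO array, so that it was at least 23.3-fold lower there. Dntt, the polymerase that adds untemplated bases at the joints, was at 4.54 and -0.17. Rag2 was not well above background on the CD8 T arrays, where Dntt was at 0.26 and -0.68.

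The transcription factors of the lineage were spread more widely. Pou2af1, a B-cell co-activator, had a ratio of -4.48, Bach2 -3.64 and Pax5, which keeps cells committed to the B lineage, -2.55. Ebf1 had only -1.03, at 2.94 on the wild-type and 1.91 on the Sipa1 KO array, and Ebf1 is also known from stromal and fat-lineage cells. Irf8 was the only one of the 13 factors within 2-fold, at -0.77. Lef1, which B and T precursors share, had -4.61 and was above its level on the wild-type MSC array, 4.46, on both CD8 T arrays, at 5.18 and 5.02. Among surface molecules, Cd93 was at 4.80 and 0.59, and Il7r, the receptor for a growth factor of B-cell precursors, at 3.58 and -0.58. Markers of later B-cell stages varied. Ms4a1 (CD20) had a ratio of -2.33, Fcrl1 -2.48 and Cr2 (CD21) -0.65, while Fcer2a (CD23) was dim on both arrays, at -4.44 and -4.43.

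**Figure D3:**
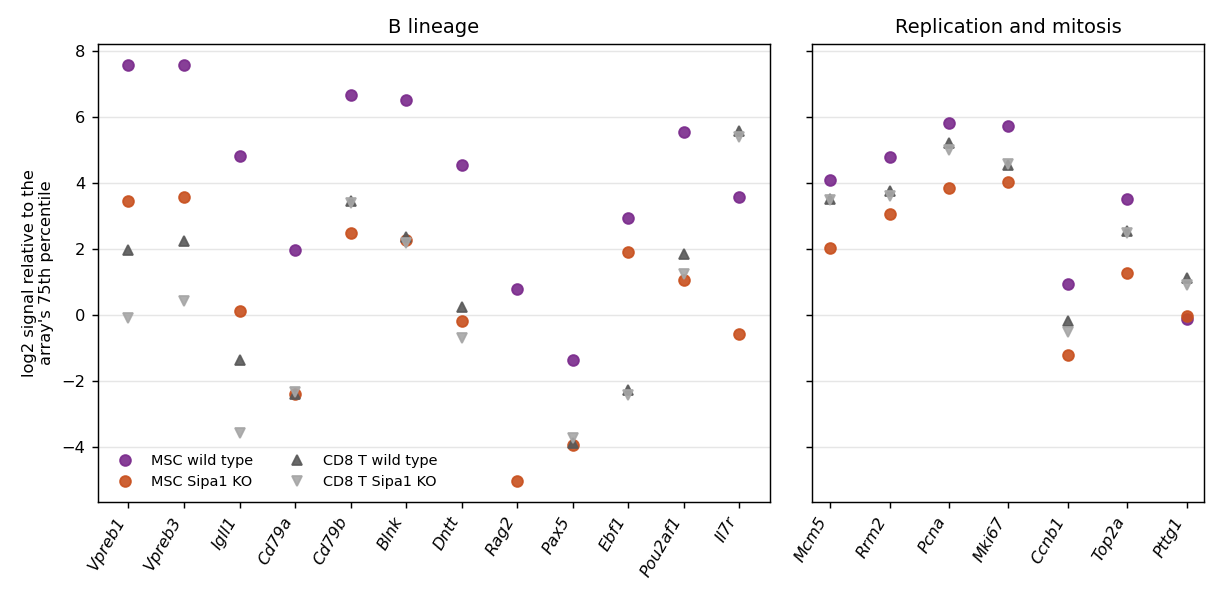
Levels (log2 signal relative to the array's 75th percentile) of B-lineage genes and of replication and mitosis genes on the 2 tumor MSC arrays and the 2 CD8 T arrays, with 1 point per array. For Vpreb1, Vpreb3, Igll1, Cd79a, Cd79b, Blnk and Pou2af1 the wild-type MSC array stands alone above the other 3, Il7r is also high in CD8 T cells, and Pttg1 is level on the MSC arrays.

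The B-lineage list made up 1.06% of the summed signal of named genes on the wild-type MSC array and 0.0949% on the Sipa1 KO MSC array, beside 0.190% and 0.184% on the CD8 T arrays. In such sorted bulk samples, fewer cells of a type and less of their RNA per cell cannot be told apart. All 39 genes of the list were above background on the wild-type and all but Rag1 on the Sipa1 KO MSC array. The part of B-lineage RNA in the other differences was not tested.

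Genes that leukocytes of all kinds share followed the B lineage. Of 26, all measured, 21 were at least 2-fold lower, against 11.3% of all genes, and 12 at least 4-fold lower, against 3.46%. Their median was -1.91. The 16 genes for cytoplasmic and signal proteins had a median of -2.18, with Gmfg at -3.26, Vav1 at -2.62 and Coro1a, an actin regulator of leukocytes, at -2.55. The 10 surface and adhesion molecules overlapped with them and had a median of -1.52, with Cd48 at -3.10 but Itgb2, the shared chain of the leukocyte integrins, at -0.29 and Itgal at -0.62. Cd52 was at 5.01 on the wild-type and 4.18 on the Sipa1 KO array. Evi2a was the only member higher on the Sipa1 KO array, at 0.51. The list's share of summed signal was 0.387% on the wild-type and 0.0923% on the Sipa1 KO MSC array, and 1.03% and 1.01% on the CD8 T arrays.

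Progenitor genes split. Of 16, 4 were at least 2-fold higher, against 19.3% of all genes, and 3 at least 2-fold lower, against 11.3%. At 4-fold, 2 were higher, against 3.47%, and 3 lower, against 3.46%. The lower ones were Erg (-3.83), Myb (-3.34) and Hhex (-2.37), all transcription factors of early blood cells. Kit (-0.26), Flt3 (-0.33) and Gata2 (-0.35) were near level. Those at least 4-fold higher were Meis1, whose probes had ratios of 2.59 and 2.05, and Mpo. Mpo, the peroxidase of neutrophil precursors, was at 1.12 on the wild-type and 3.26 on the Sipa1 KO array. Targets of STAT5, a transcription factor downstream of Bcr-Abl, had a median of -0.42 over 10 measured genes, with Pim2 at -2.31, Socs2 at -1.59 and Bcl2l1 at -1.07 lower, Myc at -0.43 and Cish at 0.12 within 2-fold, and Socs3 at 1.04 higher.

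Genes of the dividing cell were lower almost without exception. Of 39 measured replication genes 36 were at least 2-fold lower, against 11.3% of all genes, and none was higher. Of 44 measured mitosis genes 42 were at least 2-fold lower, against the same 11.3%. The subunits of the MCM helicase, which opens the DNA, ran from -2.29 for Mcm3 to -1.71 for Mcm4. Pcna, the sliding clamp of the polymerases, was at 5.79 on the wild-type and 3.85 on the Sipa1 KO array. Uhrf1, which guides maintenance methylation, had the lowest ratio of the list, -2.85. The least different were Gins3 (-0.38), Ung (-0.75) and Gins4 (-0.88).

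The mitosis genes were also tightly bunched, with quartiles of -2.21 and -1.89. Mki67, the proliferation marker Ki-67, was at 5.71 and 4.03, Top2a at 3.53 and 1.27, and Ccnb1 at 0.93 and -1.19. Kif11, a spindle motor, had the lowest ratio, -2.62. Anln (-0.92) and Pttg1 (0.09) were the only members within 2-fold. Their levels on the CD8 T arrays did not follow the genotype, with Mki67 at 4.55 and 4.56 and Pcna at 5.21 and 5.01 on the wild-type and Sipa1 KO CD8 T arrays. The 85 replication and mitosis genes together held 0.917% of summed signal on the wild-type MSC array, 0.283% on the Sipa1 KO MSC array, and 0.527% and 0.506% on the CD8 T arrays.

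The promoters of these genes share short motifs that cell-cycle factors are known to read. The motif CCAAT (NF-Y), the motif TTTGAA (the cell cycle homology region, CHR) and the motif TTCCCGC (E2F) were searched on both strands, in a window of 300 bases that runs from 250 bases before to 50 bases after the start of each gene. TTTGAA was in 70.3% of 37 mitosis promoters (26), against 15.2% of 12096 genes measured on both MSC arrays and 20.2% of all 27025 genes in the promoter table. CCAAT was in 73.0% of the mitosis promoters, against 42.4% and 41.1%. Both motifs stood together in 62.2% of the mitosis promoters, against 6.13% and 7.97%. Replication promoters differed, with TTCCCGC in 45.5% of 33 (15), against 8.80% and 5.29%, and TTTGAA in 15.2%. The motif CCCNNGGG, the core that EBF1 binds, was in 21.9% of 32 B-lineage promoters (7), against 20.7% of the measured and 15.4% of all genes. A match is a description and not a site or a cause. CCAAT can overlap TTCCCGC, as in Prim1 below.

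The 150 bases before the start of Mki67, Kif22 and Ube2c are shown as mitosis genes whose window holds both CCAAT and TTTGAA, and those of Rrm1 and Prim1 as replication genes whose window holds both CCAAT and TTCCCGC. All are at least 2-fold lower on the Sipa1 KO array. The sequences are RefSeq's on build GRCm38.p6, written from 5′ to 3′ along the gene, and capitals mark the motifs on either strand. They lie at chr7:135716380-135716529 on the minus strand for Mki67, chr7:127042421-127042570 on the minus strand for Kif22, chr2:164769779-164769928 on the plus strand for Ube2c, chr7:102441545-102441694 on the plus strand for Rrm1 and chr10:128015065-128015214 on the plus strand for Prim1.
Mki67: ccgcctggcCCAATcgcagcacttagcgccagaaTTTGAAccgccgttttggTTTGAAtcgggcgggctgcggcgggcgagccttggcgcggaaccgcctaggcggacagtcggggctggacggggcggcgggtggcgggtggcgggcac
Kif22: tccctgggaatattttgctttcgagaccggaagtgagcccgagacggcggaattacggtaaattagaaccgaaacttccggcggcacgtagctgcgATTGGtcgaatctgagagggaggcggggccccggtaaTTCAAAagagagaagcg
Ube2c: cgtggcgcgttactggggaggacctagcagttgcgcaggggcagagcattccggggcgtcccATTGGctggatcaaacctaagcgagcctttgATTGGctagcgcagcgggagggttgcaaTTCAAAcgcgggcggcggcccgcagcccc
Rrm1: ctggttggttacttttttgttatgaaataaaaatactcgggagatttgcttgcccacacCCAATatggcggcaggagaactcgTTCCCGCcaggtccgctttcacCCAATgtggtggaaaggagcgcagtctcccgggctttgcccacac
Prim1: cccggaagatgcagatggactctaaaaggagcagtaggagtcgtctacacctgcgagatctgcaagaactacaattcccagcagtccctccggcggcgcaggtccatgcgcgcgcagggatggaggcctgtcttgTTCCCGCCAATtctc
In Mki67 the CCAAT began 141 bases before the start and the TTTGAA motifs 116 and 98 bases before it. In Kif22 and Ube2c both motifs lay on the opposite strand, printed as ATTGG and TTCAAA, and the latter began 17 and 29 bases before the start. Kif22 was at 3.87 on the wild-type and 1.88 on the Sipa1 KO array, and Ube2c at 3.72 and 1.78. Rrm1, a subunit of ribonucleotide reductase, was at 3.68 and 2.17, and Prim1, the primase, at 3.46 and 1.52.

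Several abundant programs were near level between the MSC arrays. Ribosomal protein genes had ratios below 0 for 74 of 75, with a median of -0.36 and no gene past 2-fold, and many of these ratios turn sign with another scaling. Rps24 was the exception, at 0.39 as the mean of its probes and -0.15 by its brightest one. Respiratory chain genes had a median of -0.40. At least 2-fold lower were 2 of 44, Ndufs8 (-1.17) and Cox5a (-1.02), against 11.3% of all genes. Mature neutrophil transcripts differed little. S100a9 was at 8.40 and 8.50 on the wild-type and Sipa1 KO arrays, S100a8 at 7.21 and 7.39, and Camp at 6.46 and 6.97. Globin was level as well, with Hba-a1 at 8.30 and 8.39. MHC class I genes had a median of -0.03, with B2m at 6.81 and 7.17. With ribosomal protein genes set level by construction, the erythroid median turned from -0.25 to 0.12.

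On the stromal side, genes of fibroblast and MSC identity were mostly higher. Of 36 measured, 34 were higher on the Sipa1 KO array and 23 were at least 2-fold higher, against the 19.3% of all genes, with a median of 1.37. Pdgfrb, the PDGF receptor of fibroblasts and pericytes, was at 1.74 on the wild-type and 3.76 on the Sipa1 KO array. Fap, a surface protease of activated fibroblasts, was at 2.11 and 4.15. Thy1 was at 5.41 and 6.55 and Ly6a (Sca-1) at 5.27 and 6.41. The adhesion molecule Vcam1 had a ratio of 1.54, Lrp1 1.66 and the ectoenzyme Nt5e (CD73) 1.79. The largest ratio was that of Itga8, an integrin chain of mesenchyme, at 3.28, from a level of -5.23 near the bottom of the wild-type array. The signal of Pdgfra was 3.01 and 4.52, but its spot did not pass the flags for an even spot on either array and entered no count.

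Not all identity markers were on that side. Dpp4 (CD26), a protease of some dermal fibroblast layers, was lower, at 0.41 and -0.78. Mcam (CD146), an adhesion molecule of perivascular cells, was at 4.07 and 3.45. Eng (CD105) was level, at 0.05. Icam1 had 0.33. Vim, the intermediate filament of mesenchymal cells, was at 5.80 and 6.50, a smaller difference than that of Pdgfrb.

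The transcription factors of mesenchyme were higher in a body. All 14 measured were above 0 and 10 were at least 2-fold higher, against 51.8% and 19.3% of all genes. Their median was 1.66. Prrx1 was at 1.63 on the wild-type and 3.45 on the Sipa1 KO array, Snai2 at -0.11 and 1.68, and Ebf2 at -0.68 and 1.58. Twist1 and Twist2 had near-equal ratios of 1.65 and 1.67. The zinc-finger factors Zeb1 (0.97) and Zeb2 (0.58) were within 2-fold.

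Hox genes, which record the body position of a fibroblast, gave the highest list median. All 22 measured were higher on the Sipa1 KO array, against 51.8% of all genes, and 21 of them at least 2-fold, against 19.3%. The median was 1.84, with quartiles of 1.66 and 2.00. Members of all 4 clusters were among them. Hoxc6 had a ratio of 1.84. On the wild-type and Sipa1 KO arrays, Hoxa10 was at -3.17 and -0.93, Hoxb8 at -4.90 and -2.03, and Hoxd8 at -0.42 and 1.48. Hoxb3 (0.76) was the one within 2-fold, as the mean of opposite probes at 1.93 and -0.42. Many of these genes were dim on the wild-type array, where the median level of the list was -2.36, and with a normexp background correction the median was 1.33.

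Most collagen genes were higher. The bright fibrillar chains Col1a1, Col1a2 and Col3a1 were close to level, and so were some dim chains, such as Col17a1 (0.06) and Col22a1 (0.07). Of 31 measured, 30 had ratios above 0 and 20 were at least 2-fold higher, against 51.8% and 19.3% of all genes. The median was 1.58, and 0.997 with a normexp background correction. Col1a1 was at 6.88 on the wild-type and 7.15 on the Sipa1 KO array, Col1a2 at 8.56 and 8.91, and Col3a1 at 7.32 and 7.70. In contrast, Col5a1 and Col5a2, chains of collagen V that set the width of fibrils, had ratios of 1.58 and 2.33. Col27a1 had a ratio of -0.20.

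The chains of networks and microfibrils had a median of 1.70 over 11 genes, with quartiles of 1.24 and 2.63, and those of fibrils one of 0.57 over 9, with quartiles of 0.35 and 1.58, so that the groups overlapped. Col6a5, a chain of the beaded filaments of collagen VI, was at -0.87 and 3.66 on the wild-type and Sipa1 KO arrays by 2 probes, the largest ratio among all named genes above the median signal, at 4.53. Col6a2 was at 3.54 and 5.97, Col8a1 at 2.56 and 5.40, and Col8a2 at -1.36 and 1.90. The basement membrane chains Col4a1 (0.93) and Col4a2 (0.86) were within 2-fold. In the CD8 T pair Col6a5 was higher too, at -5.21 and -1.52, and so was Col1a2, at 4.24 and 5.77.

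**Figure D4:**
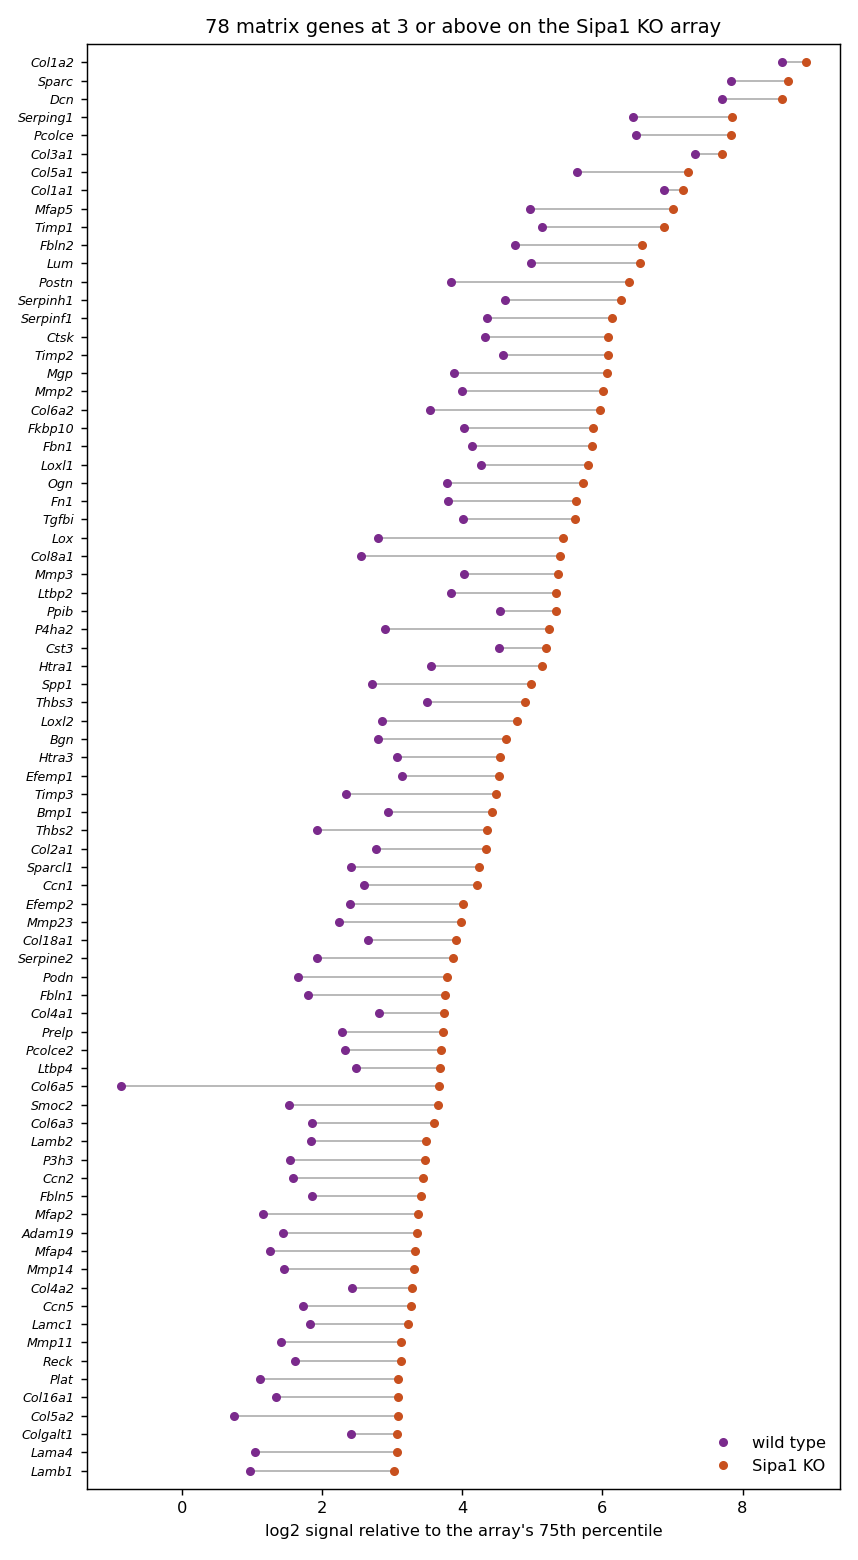
Levels on the wild-type (purple) and Sipa1 KO (orange) tumor MSC arrays of 78 genes of the matrix lists that reached 3 or more on the Sipa1 KO array, as log2 signal relative to the array's 75th percentile. All 78 are higher on the Sipa1 KO array and 68 at least 2-fold, but choosing genes by their level on that array favours those higher there. Of all 137 measured matrix genes, 136 were higher and 119 at least 2-fold, against 51.8% and 19.3% of all genes. Lines are short for Col1a1, Col1a2, Col3a1, Sparc and Dcn, and the longest line is that of Col6a5.

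The machinery that folds, trims and crosslinks collagen was higher throughout. All 24 measured genes were above 0 and 22 were at least 2-fold higher, against 51.8% and 19.3% of all genes. Lox, the enzyme that crosslinks collagen and elastin, was at 2.80 on the wild-type and 5.44 on the Sipa1 KO array, and its relatives Loxl1 to Loxl4 had ratios from 1.52 to 2.35. P4ha2, a prolyl hydroxylase, was at 2.91 and 5.25, and Plod2, a lysyl hydroxylase, at -0.37 and 2.08. Serpinh1, the collagen chaperone Hsp47, was at 4.62 and 6.26. Ppib (0.81) and Colgalt1 (0.65) were the members within 2-fold.

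Of 54 measured matrix proteins other than collagens, all were higher and 51 at least 2-fold, against 51.8% and 19.3% of all genes. Every one of the 22 glycoproteins and elastic fibre genes passed 2-fold, with Fn1, fibronectin, at 3.80 and 5.62, Fbn1 at 4.14 and 5.85 and Mfap5 at 4.97 and 7.01. Among matricellular genes, Postn, periostin, was at 3.84 and 6.38, Thbs2 at 1.93 and 4.36 and Spp1, osteopontin, at 2.72 and 4.98. Among proteoglycans the hyaluronan synthase Has1 had 2.61 and Aspn 2.36. The members within 2-fold were Acan (0.46), Sparc (0.80) and Dcn (0.86). The last of these, decorin, was at 7.71 and 8.57.

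The enzymes that cut the matrix and those that hold them back were both higher. The median was 1.74 over 19 proteases, which ranged from 0.48 to 2.48, and 1.74 over 9 inhibitors, which ranged from 0.66 to 2.13. Mmp2, a gelatinase, had a ratio of 2.01. Mmp14, which activates it, was at 1.46 and 3.31, and the plasminogen activator Plau at -1.96 and 0.52. Timp1 was at 5.14 and 6.89, and Serping1, an inhibitor of complement proteases, at 6.44 and 7.85. Mmp9 (0.48), an enzyme of neutrophils as well as fibroblasts, was among those within 2-fold.

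Matrix genes were higher over the whole range of levels, though some of the brightest were close to level. Grouped by their level on the Sipa1 KO array, matrix genes below 0 had a median ratio of 1.35 (21 genes), those from 0 to 2 one of 1.61 (25), from 2 to 4 one of 1.91 (43), from 4 to 6 one of 1.71 (29) and from 6 upward one of 1.58 (19). All genes in the same ranges had medians between -0.05 and 0.27. Among probes of Sparc the brighter one had a ratio of 0.09 and the other 1.52, and among those of Fn1 the brightest had 1.07 and the others 2.11 and 2.31. The 4 matrix lists together held 2.68% of summed signal on the wild-type and 6.30% on the Sipa1 KO MSC array, and 0.221% and 0.428% on the CD8 T arrays.

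Integrins and their linkers were higher in part. Of 30 measured, 18 were at least 2-fold higher and 1 was at least 2-fold lower, against 19.3% and 11.3% of all genes. The median was 1.18, and 0.861 with a normexp background correction. The collagen receptor chain Itga11 was at 3.21 and 5.67, Itgb5 at 3.57 and 5.48 and the shared chain Itgb1 at 2.41 and 3.63. The laminin receptor chain Itga6 was the one lower, at 0.87 and -0.36. Talin (Tln1, -0.16) and paxillin (Pxn, -0.04) were near level while Fermt2, the kindlin of non-blood cells, had 1.67.

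Contractile genes differed less than matrix genes. Their median was 0.60 over 14 genes. Mylk, the myosin light chain kinase, had 1.92 and Myl9 1.60, but Cnn1 had -0.27, Actg2 -0.26 and Tagln 0.51. Acta2 (alpha smooth muscle actin) had 0.62 as the mean of 3 probes that ranged from -0.01 to 1.11. Pericyte genes were mixed, with Anpep (1.96), Abcc9 (1.48) and Rgs5 (1.39) higher, Heyl at -0.59 and Mcam at -0.63.

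Growth factors and their receptors were higher across families. Of 80 measured, 78 were above 0, against 51.8% of all genes. At least 2-fold higher were 64, against 19.3%, and 2 were at least 2-fold lower, against 11.3%. The median was 1.55. All 20 measured Wnt genes were higher, with a median of 1.81. They included ligands such as Wnt5a (-2.06 and 0.25 on the wild-type and Sipa1 KO arrays) and Wnt9a (-1.56 and 1.35), receptors such as Fzd1 (0.91 and 2.82), and secreted antagonists such as Sfrp2 (2.53 and 4.54) and Dkk3 (0.76 and 2.85). Ligands and antagonists were higher side by side.

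The TGF-beta family was not uniform. Tgfb1 was lower, at 0.66 on the wild-type and -1.46 on the Sipa1 KO array, whereas Tgfb2 was at -1.29 and 0.98 and Tgfb3 at 1.74 and 4.37. The receptor Tgfbr2 was at 4.88 and 6.41. Gdf10, a BMP relative, had a ratio of 2.80, and the BMP antagonist Grem1 was at -2.36 and -0.16. Among IGF genes, Igf1 itself was within 2-fold, at 2.58 and 3.14, while the binding proteins Igfbp3 (1.70 and 4.92) and Igfbp5 (2.50 and 4.61) and the protease Pappa that cuts such proteins (-2.91 and -0.46) were higher. In the FGF family Fgf18 had 2.48, Fgfr1 2.07 and Fgf13 -1.50, the mean of opposite probes at -3.30 and 0.30. Vegfa was within 2-fold at 0.65, Pdgfc had 2.90 and Hgf 1.91.

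Chemokines were uneven. Of 30 measured, 16 were at least 2-fold higher and 1 was at least 2-fold lower, against 19.3% and 11.3% of all genes. The median was 1.17, and 0.57 with a normexp background correction. The eosinophil chemokine Ccl11 was at 2.75 and 5.29 on the wild-type and Sipa1 KO arrays, Ccl8 at 3.45 and 5.84 and Cx3cl1 at -0.83 and 1.80. The interferon-inducible Cxcl9, a ligand of CXCR3 on T cells, was at 2.33 and 4.58, and Cxcl12, the ligand of CXCR4, at 3.40 and 4.88. Ccl25 was lower, at -1.78 and -3.11. Ccl19 (-0.56), Ccl4 (-0.41) and Ccl3 (-0.02) were within 2-fold.

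Of 26 measured niche and immune mediators, 18 were at least 2-fold higher and 2 passed 2-fold downward, against 19.3% and 11.3% of all genes. The median was 1.21, and 0.865 with a normexp background correction. Kitl, the ligand of Kit, was at -4.37 and -2.48, Il7 at -4.54 and -3.25 and Il6 at -0.14 and 2.21. Arg1, arginase, had a ratio of 3.05, and Tnfaip6, an anti-inflammatory hyaluronan-binding protein, was at 1.63 and 4.25. Cd274 (PD-L1) had 0.67. Lgals9 was lower, at 3.36 and 2.21, and Tgfb1 was the other member lower. Complement genes were higher by a moderate amount, 16 of 20 at least 2-fold, with a ratio of 0.75 for C3 and levels of C1s1 at 5.23 and 6.86.

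Fat-lineage genes had a median of 1.15 over 18 measured, which was 0.939 with a normexp background correction. Rbp4, the retinol carrier, was at -0.26 and 3.77, and Lpl, lipoprotein lipase, at 0.32 and 2.84, whereas the fatty acid transporter Cd36 was lower, at -2.26 and -3.31. Adipoq was not well above background on the wild-type array and was at least 4.20-fold higher on the Sipa1 KO array. Bone and cartilage genes were mostly dim, with 11 of 20 measured. Alpl is the alkaline phosphatase of bone and is also used as a marker of mesenchymal progenitors. It was lower, at 2.61 on the wild-type and -1.47 on the Sipa1 KO array, a 16.8-fold difference. It was lower in the CD8 T pair too, with a ratio of -1.40. Msx1 was at -0.20 and 1.94.

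Immediate early genes, which cells switch on within minutes of a stimulus, were mostly higher. Of 22, 18 were at least 2-fold higher, against 19.3% of all genes, and none at least 2-fold lower. The median was 1.61, and Btg2 had a ratio of 0.11. Fos was at 4.67 and 6.21, Egr1 at 3.47 and 5.11, Atf3 at 0.93 and 3.06 and Fosb at -1.53 and 1.11. In the CD8 T pair their median was -0.27.

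Genes of the response to low oxygen were higher too, 12 of 12 against 51.8% of all genes, with a median of 1.35. Egln3 was at -1.69 and 0.75, Ndrg1 at 3.66 and 5.57 and Car9 at -3.07 and -1.21. The glycolytic enzymes had a smaller median, 0.49, with Gapdh at 5.67 and 5.74 and Ldha at 4.57 and 4.68 close to level. The exceptions were Eno2 (2.44), the glucose transporter Slc2a1 (1.47) and Hk2 (1.26).

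Of 35 interferon-stimulated genes 5 were at least 2-fold higher, against the 19.3% of all genes, and Gbp7 was lower at -1.59, with a median of 0.49. Of the 13 inducible by interferon-gamma, 4 were at least 2-fold higher. Isg15 was at 4.42 and 4.77 and Gbp2 at 3.56 and 4.14. Xaf1 had 2.57 as the mean of 2 probes at -0.78 and 5.92. MHC class II genes held both directions. H2-Ab1, with a ratio of 1.09, and H2-Eb1, at 3.90 and 5.20 on the wild-type and Sipa1 KO arrays, were higher, and H2-Ob (-3.57) and H2-Oa (-2.62), which encode an inhibitor of peptide loading found in B cells, were lower.

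Genes of the Rap1 circuit, in which Sipa1 acts, had a median of 0.04. The GTPases Rap1a (0.05) and Rap1b (0.56) were within 2-fold, and Rap2a had 1.38. Some activators were lower, with Rasgrp2 at 4.01 on the wild-type and 0.29 on the Sipa1 KO array and Rasgrp1 at -0.97 and -3.17. Rapgef5 was at -0.49 and -3.55, while Rapgef2 had a ratio of 0.83. The relatives of Sipa1, Sipa1l1 (0.67), Sipa1l2 (-0.01) and Sipa1l3 (0.25), were within 2-fold.

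Transcripts of other cell types were present in both sorts. Neutrophil genes held 0.879% of summed signal on the wild-type and 1.00% on the Sipa1 KO MSC array with all 19 above background, and erythroid genes 0.758% and 0.802% with all 15 above background. Skeletal muscle genes held 0.185% and 0.325%, with Tnnc2 at 5.59 and 6.37 and the satellite cell gene Pax7 not above background on either array. Macrophage genes held 0.0273% and 0.0400%, with 17 and 19 of 20 above background. The T cell list was split and its median turned from 0.66 to -1.34 among genes above the median signal, with Cd2 (-3.52), Lat (-2.69) and Zap70 (-1.59) lower and Cd3g (1.43) and Icos (1.70) higher. Endothelial genes were split as well. Mmrn1 was at 0.00 and -4.81, a 28.1-fold difference, and Pecam1 was lower too, while Flt1 had a ratio of 2.06 and Kdr 1.71, with Tie1, Flt4 and Lyve1 not above background on either array. The part of these cells in the other differences was not tested.

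**Figure D5:**
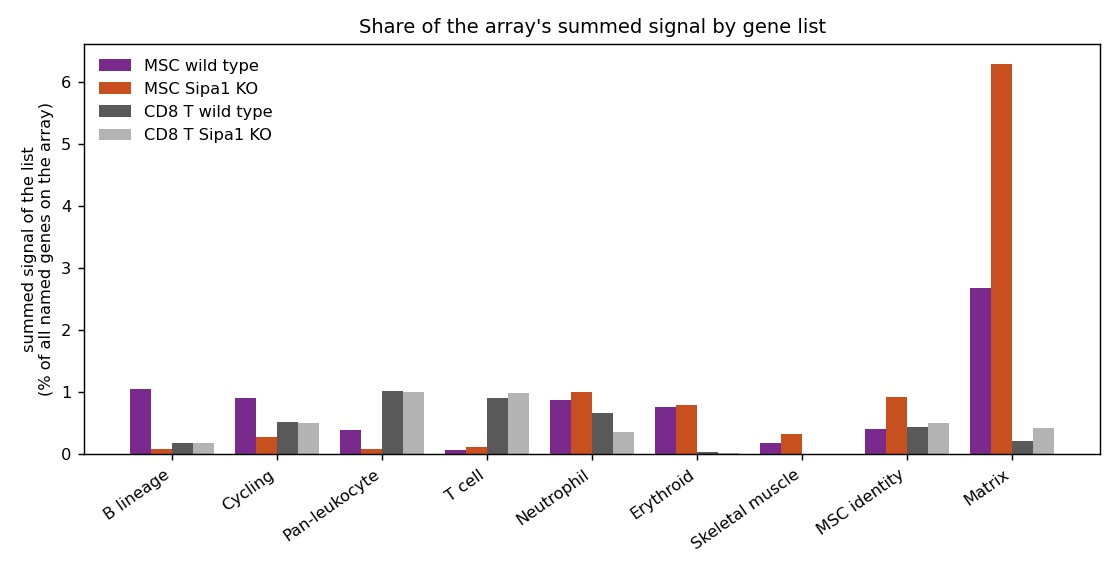
Summed signal of gene lists as a percent of the signal of all named genes on each of the 4 arrays (bars, 1 array each, no error). The B-lineage share is 1.06% on the wild-type MSC array and 0.0949% on the Sipa1 KO MSC array, neutrophil and erythroid shares are similar on both, and the matrix share is 2.68% and 6.30%.

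Of the 25 lowest ratios among named genes above the median signal, 12 belonged to the B-lineage list. The others included Vpreb2 (5.43 and 0.85 on the wild-type and Sipa1 KO arrays), a near copy of Vpreb1 whose signal may be shared with it, and Mzb1 (4.96 and 0.88), a chaperone of antibody-forming cells. Grb7, an adaptor of receptor kinases, had the lowest ratio of them, at 3.50 and -1.34. Crhbp, which binds corticotropin-releasing hormone, had a ratio of -4.70. The lymphocyte receptors Slamf6 (1.83 and -2.80) and Slamf7 (1.94 and -2.29) and the lymphocyte adaptor Sit1 (1.83 and -2.50) were among them. Of the 25 genes, 24 were measured in the CD8 T pair, and 5 were at least 2-fold lower on the Sipa1 KO CD8 T array too. The share over all genes of that pair was 1.40%.

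Of the 25 highest, 8 were in a list. Apart from matrix genes and growth factors, they included Smpd3, a sphingomyelinase (-1.41 and 2.19), Map1b, a microtubule protein (-2.07 and 1.46), Car4, a membrane carbonic anhydrase (-1.35 and 2.10), Retnla, a secreted protein of alternative activation (-0.73 and 2.56), and F3, tissue factor (1.26 and 4.08). The noncoding RNAs Meg3 (-0.01 and 2.94) and Rian (-0.06 and 2.85), which come from one imprinted cluster, were both among them. Duox1 (3.08) and its maturation factor Duoxa1 (3.05) were both there. The probes of Grn ranged from 0.95 to 6.65. Of 18 of these genes measured in the CD8 T pair, 12 were at least 2-fold higher on the Sipa1 KO CD8 T array too. The share over all genes of that pair was 2.66%. Fbln7 had a ratio of 3.22 there and Aif1l one of 2.62.

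Some genes were measured on 1 MSC array only. Well above background on the Sipa1 KO array alone were 712 genes, of which 267 were bounded at 2-fold or more. Syt10 was at least 46.0-fold higher, Muc2 at least 26.7-fold and Ereg, a ligand of the EGF receptor, at least 9.47-fold. On the wild-type array alone were 478 genes, of which 172 were bounded at 2-fold or more, with Rag1 first. Pinlyp was at least 23.1-fold lower on the Sipa1 KO array, the receptor kinase Ltk at least 20.8-fold and the homeobox gene Dlx1 at least 16.0-fold. Of all genes at least 2-fold lower on the Sipa1 KO array, 56 were in the B-lineage or leukocyte lists, 78 in the replication or mitosis lists and 1563 in none of the lists used here. Of those at least 2-fold higher, 381 were in a list and 2577 in none.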

How the data were processed

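RNA of sorted cells was labelled with Cy3 and hybridised to 1-color Agilent mouse arrays, 4 on 1 slide and in 1 scan. The deposited scanner files of the authors hold spot intensity after background subtraction (Feature Extraction 12.0.3.1 in the file header, 9.1 in the submitters' notes), and their value table was this signal times 1 constant per array. Spots had to pass the study's flags (not saturated, even, above background) on both MSC arrays, which left 33128 probes and 15298 genes. The log2 of the deposited signal was set relative to the 75th percentile of each array, spots were averaged per probe and probes per gene. Above background were 64.7% and 65.3% of spots on the wild-type and Sipa1 KO arrays, and none was saturated. Repeated spots gave the ratio a spread of 0.0334 (SD, log2), which covers spot noise only. Bounds ("at least N-fold") set the measured level against the higher of the dim array's lowest signal above background and the probe's own. Genes named were the 25 largest ratios each way among genes above the median signal, each list's highest, lowest and brightest members, the 10 largest bounds each way and, as examples chosen after their values were seen, further members. The members and the 36 lists were chosen with earlier results of these data known. The script that counts genes past 2-fold was tested on simulated data; no difference between genotypes was tested. Tools were Python 3.11.15 with numpy 2.4.6, pandas 2.3.3 and matplotlib 3.10.9, and R 4.3.3 with limma 3.58.1 for normexp.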

Additional observations from a re-analysis of the deposited data

Results flagged for a closer look

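For 7 genes of the lists the ratio (Sipa1 KO minus wild type) passed 2-fold upward in the MSC pair and downward in the CD8 T pair. The difference between pairs was not tested, since each pair holds 1 array per genotype. Fosl1 had 2.33 in MSCs and -1.35 in CD8 T cells, 3.68 apart. Snai1 had 1.91 and -1.37, 3.28 apart. Ptgs2 had 1.04 and -2.15, 3.19 apart. Rgs5 had 1.39 and -1.64, 3.02 apart. Thbs1 had 1.61 and -1.14, 2.75 apart. The ratios of Cebpb were 2.39 apart, with -1.20 in CD8 T cells, and Kcnj8 had 1.22 and -1.04, 2.26 apart. Of 13781 genes measured in both pairs, 18 were opposite in this way and 4 in the reverse way.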

How the results depend on the processing

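The values below are list medians of the log2 ratio, in the order B lineage, DNA replication, mitosis, fibroblast and MSC identity, and collagens, and none turned sign. Array medians set level gave -3.21, -1.91, -2.15, 1.23 and 1.44. Level ribosomal protein genes gave -2.71, -1.41, -1.65, 1.73 and 1.94, with 4308 genes at least 2-fold higher and 1072 lower. The authors' value table gave -2.87, -1.56, -1.80, 1.57 and 1.78. A normexp background correction gave -2.61, -1.62, -1.81, 1.15 and 0.997, with 1828 genes higher. Flags needed on 1 array only gave -3.15 for the B lineage, 1.41 for identity and 1.35 for collagens, and no flags -3.15, 1.41 and 1.25. Quantile normalization gave 1.48 for collagens. The brightest probe gave -3.19 for the B lineage and -1.71 for replication, and turned Xaf1 to -0.78. Among genes above the median signal, 1307 were higher and 901 lower, with -3.86 for the B lineage and 1.66 for collagens. Of 31 other lists, 4 of the 12 past 2-fold fell below it with normexp (integrins 0.861, chemokines 0.570, niche and immune mediators 0.865, fat lineage 0.939), chemokines also without flags (0.714), and of 581 single genes past it, 113 did. Medians that turned sign were those of the Rap1 circuit (-0.09 with array medians level), progenitor genes (0.10) and erythroid genes (0.12) with level ribosomal genes, and osteogenic (-0.10) and T cell genes (-1.34) above the median signal. No paired analysis was possible because each genotype has 1 array. No array could be left out for the same reason, and the number of arrays limits the precision.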
